A study of Rattus norvegicus with 9 samples.

Results

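Rat adipose-derived stromal cells that had spent 7 days in the fat of a mouse (Vivo) were set against the cultured cells from which they had been injected (Con), across every gene with enough counts to be tested. Adipose-derived stromal cells (ADSCs) are plastic-adherent mesenchymal cells of fat. Here all of them came from the subcutaneous inguinal fat of rats that carry a GFP transgene, were freed with type 2 collagenase and grew in DMEM/F12 with 10% fetal bovine serum. The 3 Vivo libraries were made from passage 4 cells that were injected into adipose tissue of nude mice and recovered 7 days later, and the 3 Con libraries from passage 4 cells in culture. These are 6 of the 9 libraries of the study, and the other 3 came from cells kept in culture until the Vivo cells were recovered. The labels give no strain, age or sex, do not say how the Vivo cells were recovered or sorted, and do not state if the 3 libraries of each group are separate animals, separate cultures or repeats of 1 sample. The p-values therefore measure the spread between libraries, which may be technical. The host, the days between the collections and the recovery itself cannot be told apart in this comparison.

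In fat, stromal cells lie around vessels and between adipocytes, where they secrete and remodel matrix, give rise to adipocytes and answer to Wnt, Notch, TGF-beta and inflammatory signals. In culture on plastic with serum the same cells spread, build stress fibres and deposit a wound-like matrix rich in fibronectin. Matrix genes can therefore be read by role: structural chains, the enzymes that mature them, the proteases that cut them and the matricellular proteins that bind growth factors.

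Poly(A)-selected RNA was sequenced to a total of 17484607 to 18061951 counts per Vivo library and 17962188 to 18355242 per Con library, and each had a count for between 14155 and 14323 of the 21923 genes. Vivo replicate 3 stood apart. Mitochondrially encoded genes took 3.48% of its counts, against 2.34% and 2.49% in the other Vivo libraries and 2.07% to 2.23% in the Con libraries. Its correlation with the other Vivo libraries was 0.949 and 0.951 across genes, where that between Vivo replicates 1 and 2 was 0.983 and those between Con libraries were 0.970 to 0.984. The longer a gene, the lower it stood in replicate 3 relative to the other Vivo libraries (Spearman's rho of -0.52 across genes), so results are given with and without it where it moved them. Of the stromal markers, none of 12 was called in either direction by edgeR's quasi-likelihood test, 4 had an unadjusted p under 0.05, DESeq2 called 2 higher and 1 lower, and limma with sample quality weights called 3 higher and 4 lower. They took 4.57% ± 0.0829 of the Vivo counts and 5.22% ± 0.307 of the Con counts (SD, n = 3 each).

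Elastin, tenascin-N and the Notch effector genes Heyl and Hes1 were among the largest rises after 7 days in host fat. The Wnt feedback gene Nkd2, the kinase gene Bmx and the phosphodiesterase gene Pde2a were among the largest falls, and fibronectin and collagens among the largest losses of counts. Elastin (Eln, ENSRNOG00000001469) had 426, 366 and 767 CPM in the Vivo libraries, against 2.1, 0.566 and 1.33 CPM in the Con libraries. Tenascin-N (Tnn, ENSRNOG00000002548), a matricellular protein, had 335, 731 and 305 CPM in the Vivo libraries, against 8.7, 17.1 and 13.8 CPM in the Con libraries. Fibronectin (Fn1, ENSRNOG00000014288) fell to 7972, 8604 and 6332 CPM in the Vivo libraries, against 17424, 15020 and 16815 CPM in the Con libraries. The groups did not overlap for any of these 3 genes, as was so for every called gene. Levels are counts scaled to a common library total by TMM (CPM) and listed in the order of replicates 1, 2 and 3, log2 fold changes are Vivo minus Con and are given ± SE, and a gene is called where its Benjamini-Hochberg adjusted p from edgeR's quasi-likelihood test is under 0.05.

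Of 12364 genes tested, 639 were called higher in Vivo, which is 5.17%, and 564 lower, which is 4.56%, or 9.73% in either direction. The libraries of Vivo and Con did not overlap for 33.5% of the genes tested, with 2144 of these genes above Con and 1996 under it, and every called gene was among these. Of the called rises, 374 were at least 2-fold, 153 at least 4-fold and 44 at least 16-fold. Among the called falls, 334 were at least 2-fold, 108 at least 4-fold and 21 at least 16-fold. The median log2 change over all genes tested was 0.01, and that of called genes was 1.12 in size for rises and 1.14 for falls.

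**Figure D1:**
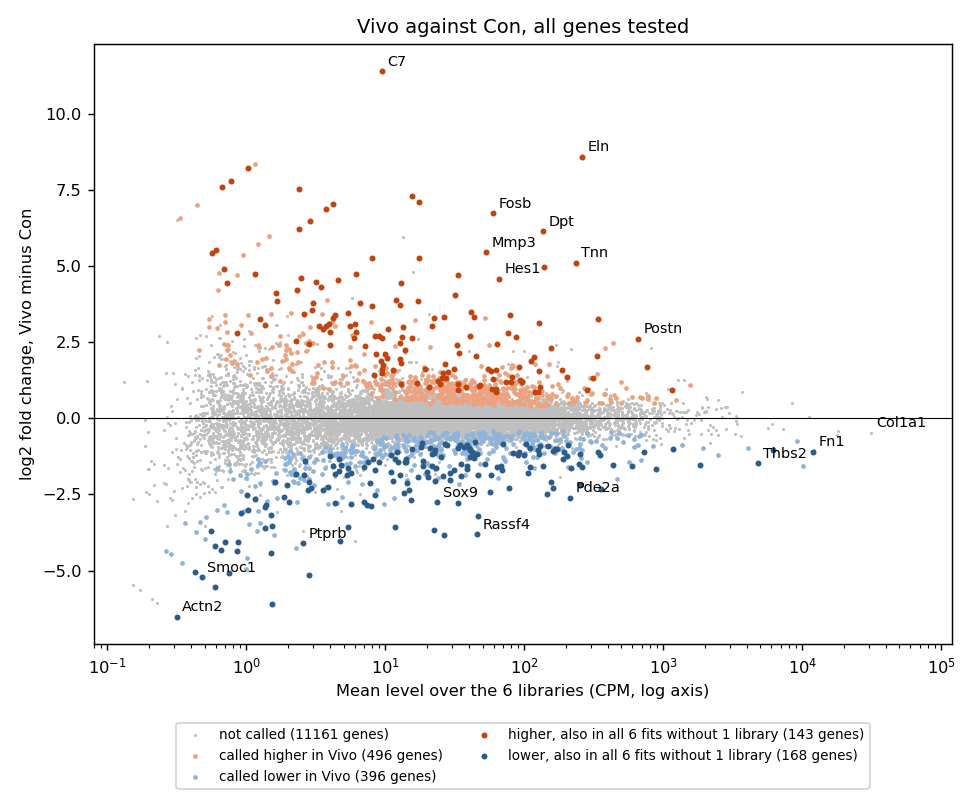
Each point is 1 of 12364 genes tested, with its mean level over the 3 Vivo and 3 Con libraries on a log axis in CPM and its log2 fold change, Vivo minus Con. Dark points are the 143 rises and 168 falls that were also called in all 6 fits that left out 1 library, and they include C7, Eln and Tnn at the top and Fn1 and Thbs2 among the most abundant genes.

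Single libraries decided many calls. The count was 667 genes without Vivo replicate 1, 747 without Vivo replicate 2, 1706 without Vivo replicate 3, 462 without Con replicate 1, 1035 without Con replicate 2 and 341 without Con replicate 3. Of the genes tested, 2.52% were called in the full fit and in all 6 fits without 1 library, 143 higher and 168 lower, and 296 of these 311 were also called under 9 other settings. The genes described here with a direction belong to these 311 unless the text says which library their call needs.

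**Figure D2:**
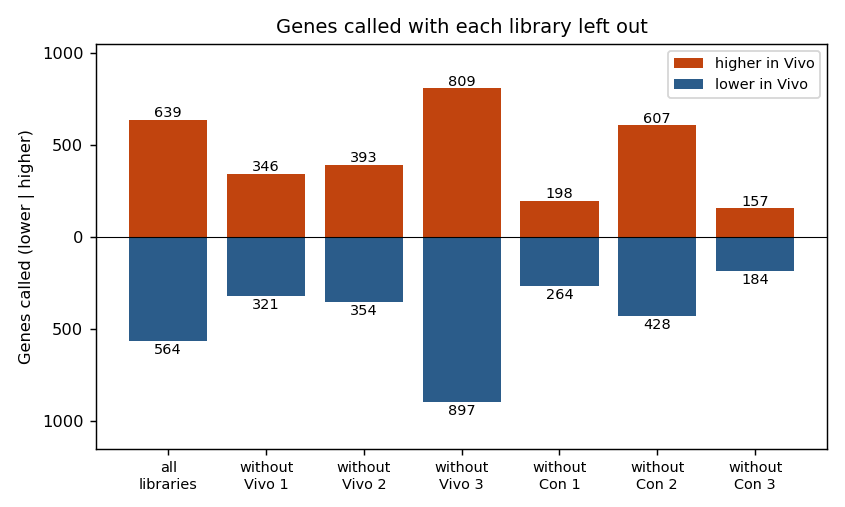
Bars give the number of genes called higher in Vivo (upwards) and lower in Vivo (downwards) with all libraries and with each library left out, on a linear axis from 0. Leaving out Con replicate 3 gave 157 rises and 184 falls, and leaving out Vivo replicate 3 gave 809 and 897.

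Called genes were found at every level of expression. Of 819 genes with a mean under 1 CPM, 7.69% were called, 31 higher and 32 lower, and of 6791 genes between 10 and 100 CPM 9.04% were called, 365 higher and 249 lower. Of the 98 genes above 1000 CPM, 14.3% were called, 3 higher and 11 lower. Called rises together took 6.15% ± 0.488 of the counts in Vivo libraries and 2.87% ± 0.204 in Con libraries, and called falls took 6.03% ± 0.628 in Vivo and 12.1% ± 0.701 in Con (SD, n = 3 each). The 10 most abundant genes of a library took 10.9% to 12% of its counts in Vivo and 14.4% to 16.7% in Con. Called rises had a median implied length of 3.20 kb, called falls of 4.20 kb and all genes of 3.46 kb. Without Vivo replicate 3 the order turned round, with 3.89 kb for rises and 3.53 kb for falls.

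The most abundant transcripts per length included mitochondrial, cytoskeletal and matrix genes in both groups. By the deposited FPKM values, which are scaled to length and depth, mitochondrial Mt-co1, the calcium-binding protein gene S100a6, the collagen chain gene Col1a1 and Vim, the intermediate filament gene of mesenchymal cells, stood near the top. S100a6 had an FPKM of 4621, 5336 and 8233 in the Vivo libraries and 5002, 5282 and 4705 in the Con libraries. Col1a1 had an FPKM of 4009, 3960 and 4047 in the Vivo libraries and 5102, 4884 and 5235 in the Con libraries. The groups did not overlap for Col1a1, whose log2 change of -0.47 ± 0.19 in the counts was not called (adjusted p = 0.15). Among the 25 genes with the highest mean FPKM, the matricellular gene Sparc alone was called, with 6469, 6407 and 7725 CPM in the Vivo libraries, against 11338, 10850 and 12158 CPM in the Con libraries and a log2 change of -0.74 ± 0.16. That call was lost without Vivo replicate 1 or 2 or Con replicate 1 or 3, with an adjusted p of up to 0.101. Thbs1, which encodes thrombospondin-1, had 11402, 8795 and 3673 CPM in the Vivo libraries, against 17914, 14810 and 16197 CPM in the Con libraries (log2 -1.04 ± 0.33, adjusted p = 0.077), and its lowest library was Vivo replicate 3.

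Among called genes, the largest losses in CPM were of matrix genes. Fn1 fell by 1.10 ± 0.16 on the log2 scale (adjusted p = 0.0038), and Thbs2, which encodes the matricellular protein thrombospondin-2, had 2961, 2809 and 1791 CPM in the Vivo libraries, against 6082, 6886 and 8057 CPM in the Con libraries. The fibrillar collagen gene Col5a2 had 4278, 4612 and 3188 CPM in the Vivo libraries, against 8595, 7244 and 8867 CPM in the Con libraries. In Vivo, all 3 libraries lay below every Con library for these genes, with the lowest value in replicate 3 each time. Cd55, whose product shields cells from complement, had 1328, 715 and 802 CPM in the Vivo libraries, against 2603, 2575 and 3022 CPM in the Con libraries. The Wnt-binding antagonist gene Sfrp1 had 421, 430.2 and 422 CPM in the Vivo libraries, against 1532, 1016 and 1512 CPM in the Con libraries, with almost no spread among the Vivo libraries. Ltbp2, a gene of the elastic fibre microenvironment, fell by 1.00 ± 0.17 on the log2 scale and Figf, which encodes the lymphatic growth factor VEGF-D, by 1.56 ± 0.27. Col12a1, with 5786, 7544 and 2004 CPM in the Vivo libraries, against 15404, 12268 and 17337 CPM in the Con libraries, was the largest loss in mean CPM among called genes, but its call was lost without Vivo replicate 1 or any Con library, with an adjusted p of up to 0.145.

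Gains in CPM among called genes included other secreted and surface genes. Postn, which encodes periostin, a matricellular protein of remodelling connective tissue, had 1040, 1223 and 1111 CPM in the Vivo libraries, against 226, 113 and 214 CPM in the Con libraries. Anpep, the gene of the surface peptidase CD13, had 801, 1343 and 1378 CPM in the Vivo libraries, against 437, 222 and 423 CPM in the Con libraries, and every Vivo library was above every Con library. The secreted serine protease gene Htra1 had 1281, 1497 and 1763 CPM in the Vivo libraries, against 829, 773 and 783 CPM in the Con libraries. Col5a3, a minor fibrillar collagen chain, had 789, 555 and 499.6 CPM in the Vivo libraries, against 64.6, 55.5 and 72.8 CPM in the Con libraries, with the Con libraries close together. Dusp1, which encodes a phosphatase that switches off MAP kinases, had 367, 467 and 783 CPM in the Vivo libraries, against 128, 106 and 157 CPM in the Con libraries. The mitochondrial gene Mt-nd2 had the largest gain in mean CPM among called genes, with 1678, 1873 and 2843 CPM in the Vivo libraries, against 819, 1151 and 1038 CPM in the Con libraries, and was not called without Con replicate 1 or 3, where its adjusted p reached 0.0932. Its highest library was Vivo replicate 3, the library with the highest mitochondrial share.

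**Figure D3:**
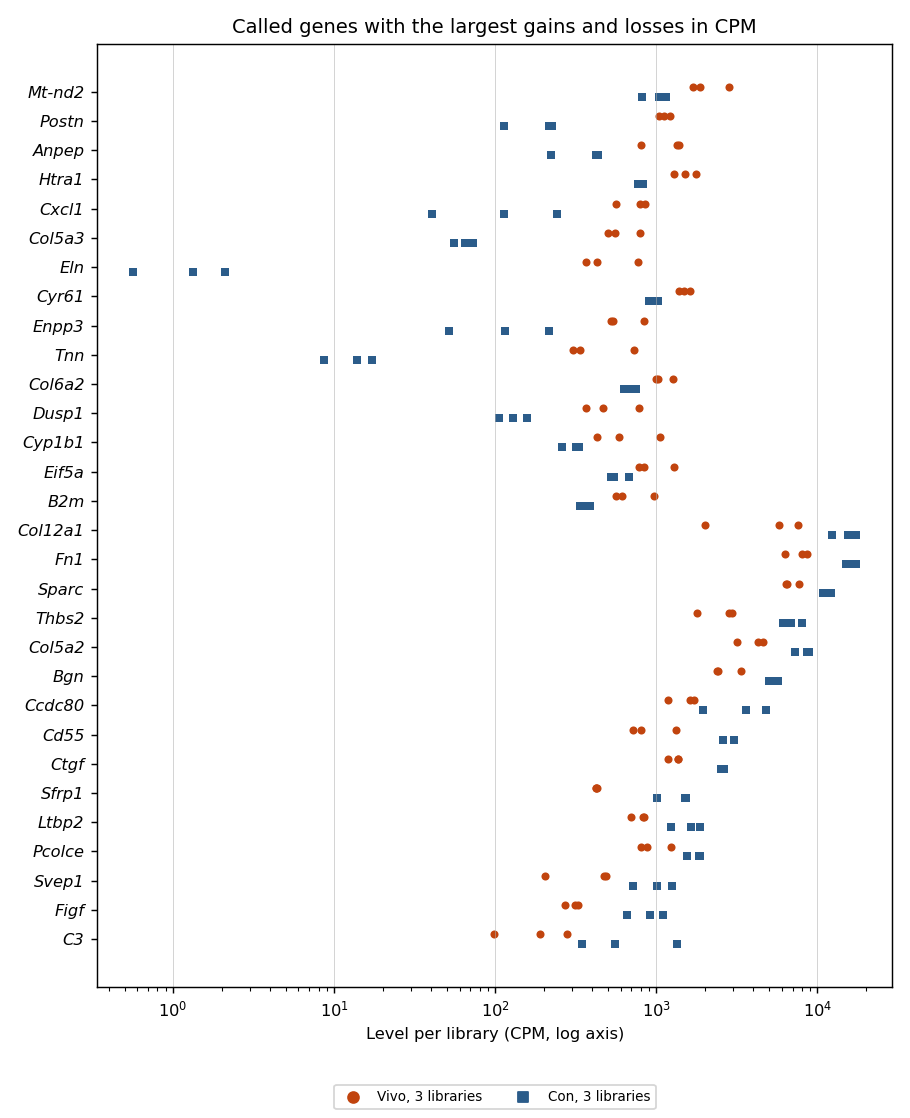
Levels in each library are plotted on a log axis in CPM for the 15 called genes with the largest gain and the 15 with the largest loss in mean CPM, with Vivo libraries as circles above Con libraries as squares. The points of Vivo and Con do not overlap for any of the 30 genes, which the choice of genes required, and Eln shows the widest separation.

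The largest relative rises included a hormone precursor, receptors and enzymes beside matrix genes. Trh (ENSRNOG00000011824), the precursor gene of thyrotropin-releasing hormone, had 37, 19.2 and 36.8 CPM in the Vivo libraries, against 0.171, 0.34 and 0.0579 CPM in the Con libraries. Heyl, a repressor gene turned on by Notch, had 41.9, 25.6 and 36.4 CPM in the Vivo libraries, against 0.341, 0.226 and 0.174 CPM in the Con libraries. Dpt, which encodes dermatopontin, a small collagen-binding protein typical of tissue fibroblasts, had 207, 236 and 364 CPM in the Vivo libraries, against 6.71, 2.09 and 2.55 CPM in the Con libraries. In these 3 genes the Vivo and Con libraries lay far apart, and no Con library came near a Vivo one. Cmklr1, the gene of the chemerin receptor, had 17.3, 15.3 and 14.3 CPM in the Vivo libraries, against 0.398, 0.453 and 0.348 CPM in the Con libraries, and its log2 change of 5.27 ± 0.28 had one of the smallest errors among the rises. Cyp26b1, which encodes an enzyme that degrades retinoic acid, had 50.4, 25.5 and 26.6 CPM in the Vivo libraries, against 1.42, 0.283 and 0.927 CPM in the Con libraries. Itm2a, a membrane protein gene, had 61.7, 60.8 and 70.5 CPM in the Vivo libraries, against 4.61, 0.566 and 2.14 CPM in the Con libraries, and the serine protease gene Htra3 had 21.9, 18 and 34.5 CPM in the Vivo libraries, against 1.54, 1.08 and 0.811 CPM in the Con libraries. Ednra, the gene of the endothelin A receptor, rose by 4.56 ± 0.60 on the log2 scale, and Sparcl1, which encodes the matricellular protein hevin, by 4.75 ± 0.58.

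A few rises started from almost no counts. C7, a complement component of the membrane attack complex, had 27.9, 14.2 and 14.5 CPM in the Vivo libraries and no count in any Con library, which is at least 331-fold higher when the whole Con group is given a floor of 3 counts. Capn6, a calpain family gene, had 1.2, 1.96 and 1.49 CPM in the Vivo libraries and likewise no Con count, at least 27.1-fold higher. Hey1, another Notch effector gene, was at least 23.6-fold higher by the same floor. The ratio of Vivo to Con was 252 for the Wnt ligand gene Wnt2, with a 95% counting interval of 44.8 to 9978 from 1 Con count. Dkk2, a Wnt modulator gene, had a ratio of 100 (95% counting interval 33.9 to 488) from 3 Con counts, all in replicate 1. Aldh3a1, an aldehyde dehydrogenase gene, had a ratio of 131 (95% counting interval 44.4 to 636), and its Vivo libraries were uneven at 1.9, 16.2 and 4.17 CPM. These intervals and the floor cover counting error only.

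The largest relative falls included genes of cyclic nucleotide, kinase and Wnt signalling. Pde2a (ENSRNOG00000019560), a phosphodiesterase gene that cGMP activates, had 62.2, 58.2 and 60.4 CPM in the Vivo libraries, against 385, 356 and 360.4 CPM in the Con libraries, the tightest of the large falls. Rassf4, a Ras-association domain gene, had 6.74, 4.74 and 6.85 CPM in the Vivo libraries, against 67.4, 116 and 71.3 CPM in the Con libraries. Nkd2, a feedback inhibitor gene of Wnt signalling, had 8.53, 9.26 and 9.31 CPM in the Vivo libraries, against 90.6, 71.8 and 89.8 CPM in the Con libraries. The libraries of Vivo and Con lay far apart in all 3. Bmx, a Tec family kinase gene, had 0.109, 0.0545 and 0.286 CPM in the Vivo libraries, against 6.59, 4.47 and 5.45 CPM in the Con libraries, and Pik3r5, a regulatory subunit gene of PI3-kinase gamma, had 2.55, 1.42 and 1.37 CPM in the Vivo libraries, against 8.64, 16.2 and 14.3 CPM in the Con libraries. Dock8, which encodes an activator of the small GTPase Cdc42, fell by 2.78 ± 0.38 on the log2 scale, and the Slit receptor gene Robo2 fell by 2.75 ± 0.47. Clec11a, the gene of a secreted bone growth factor, had 3.15, 5.72 and 3.48 CPM in the Vivo libraries, against 24.3, 29.9 and 25.3 CPM in the Con libraries. Ch25h, which makes 25-hydroxycholesterol, had 5.49, 1.2 and 3.83 CPM in the Vivo libraries, against 48.6, 39.2 and 60.7 CPM in the Con libraries. Scube3, a secreted EGF-repeat gene, fell by 3.56 ± 0.51, and Spata18, a mitochondrial quality control gene, by 3.58 ± 0.29. Ptprb (ENSRNOG00000055293), a receptor phosphatase gene best known from endothelium, had 0.326, 0.272 and 0.228 CPM in the Vivo libraries, against 5.29, 4.64 and 4.63 CPM in the Con libraries. Actn2, the muscle form of alpha-actinin, had no count in any Vivo library and 0.796, 0.453 and 0.637 CPM in the Con libraries, at least 11.4-fold lower by the floor of 3 counts.

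**Figure D4:**
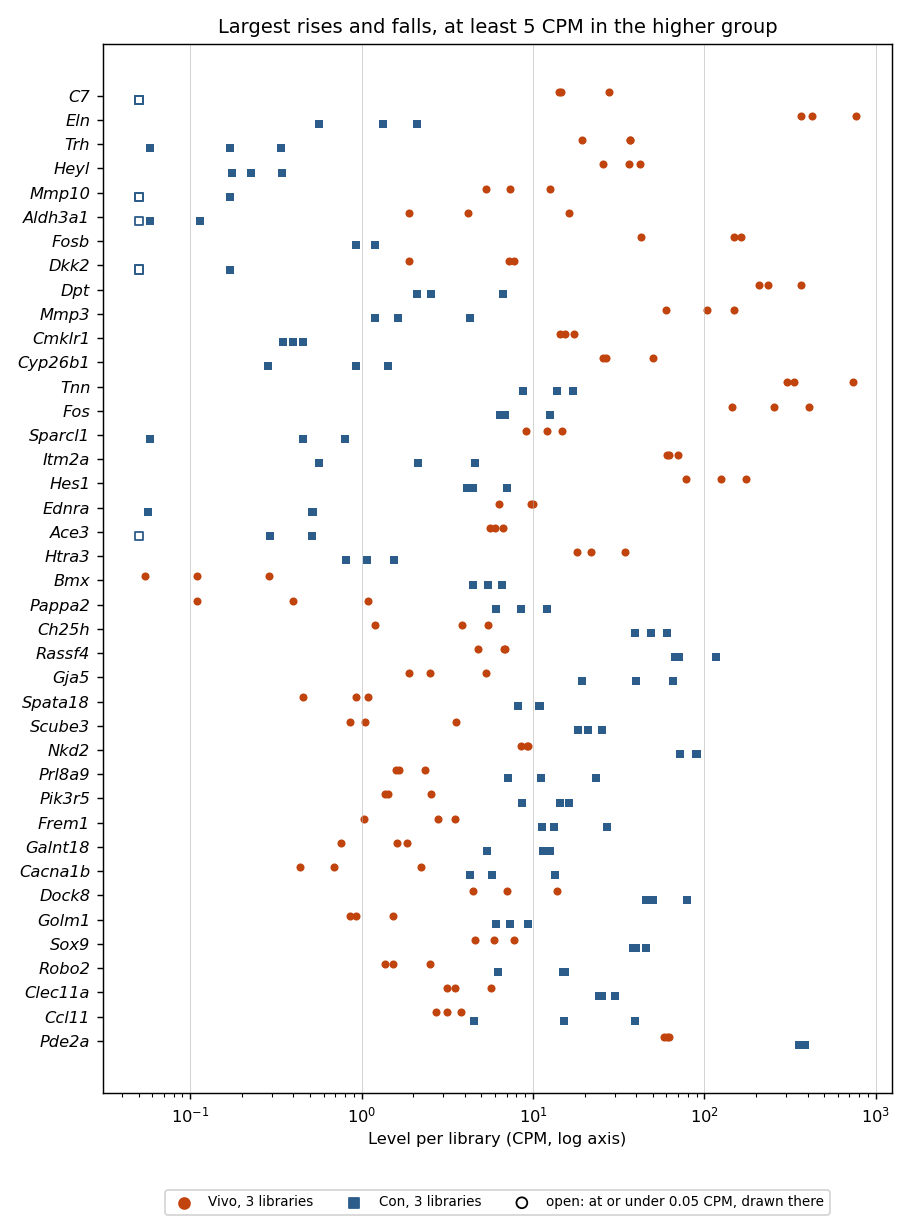
Levels in each library are plotted on a log axis in CPM for the 20 largest called rises and the 20 largest called falls among genes with at least 5 CPM in the higher group, with Vivo libraries as circles above Con libraries as squares. Open symbols stand for values at or under 0.05 CPM, C7 has 3 of them in Con, and groups that do not overlap were a condition of the choice.

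Gene lists were then used to read the 1203 calls by role. The 57 lists hold 1881 tested genes, of which 17.3% were called, against 8.37% of the genes in no list. The lists were chosen with earlier results of these data known, so these shares do not measure an enrichment. Even so, 877 of the 1203 called genes were in no list, as were 186 of the 311 that kept their call in all 6 fits without 1 library. Of the 326 called genes that are in a list, 125 kept it. In 34 lists members were called in both directions, in 21 in 1 direction and in 2 not at all. Each list is given here by its counts and its median, to be read against 9.73% called and a median of 0.01 over all genes.

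**Figure D5:**
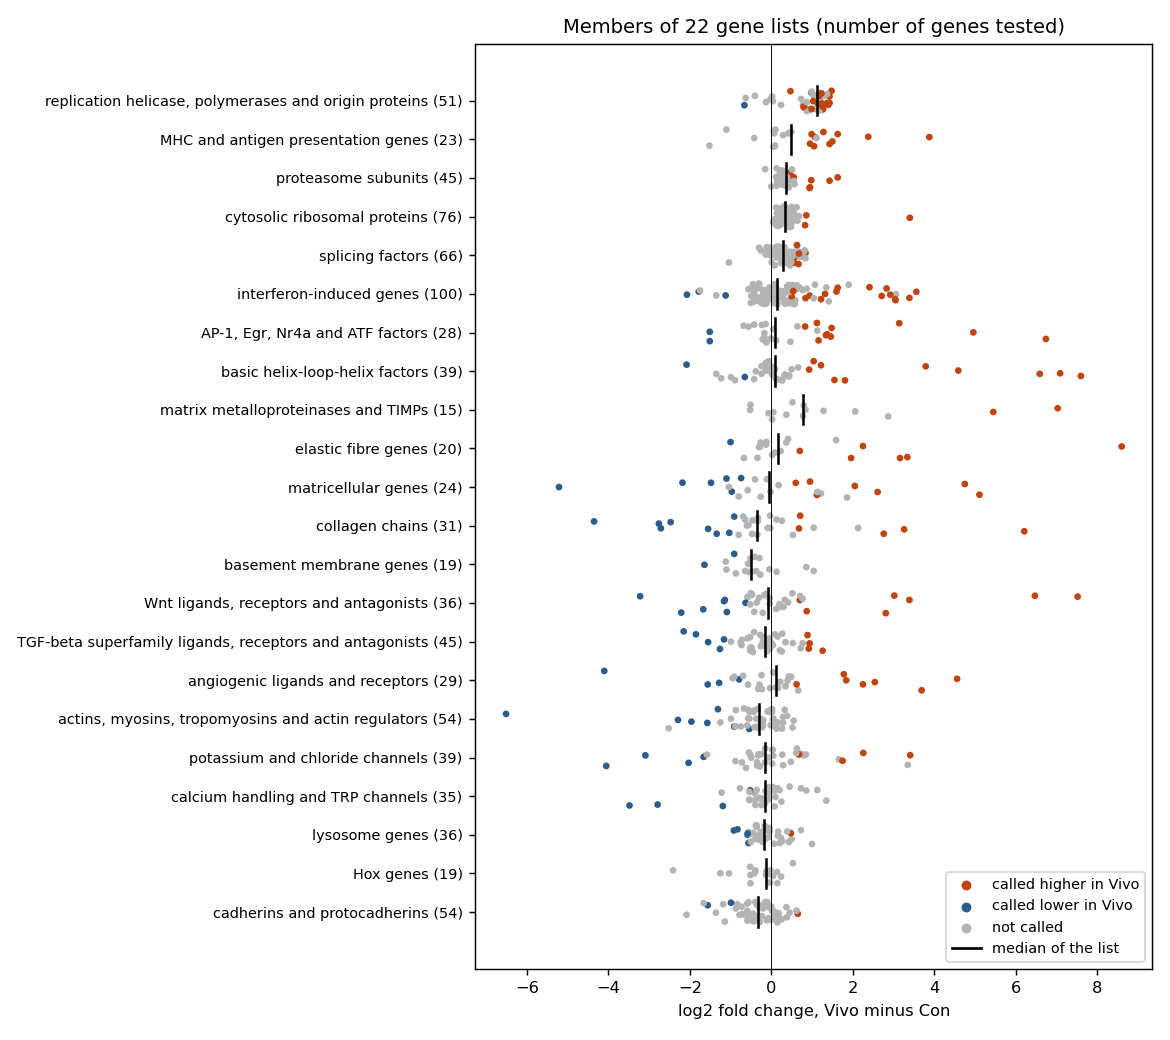
Each point is a tested member of 1 of 22 gene lists, placed by its log2 fold change (Vivo minus Con), red where called higher, blue where called lower and grey where not called, with a black bar at the median of the list. The replication list lies to the right as a block around a median of 1.12, while collagen, Wnt and matricellular members spread to both sides.

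Collagen chains moved in both directions, with 5 of 31 called higher and 8 lower and a median of -0.34. Without Vivo replicate 3 the median was -0.15, with 7 called higher and 8 lower. The beaded-filament chain gene Col6a6 had 6.09, 5.39 and 2.68 CPM in the Vivo libraries, against 0, 0.17 and 0 CPM in the Con libraries, a ratio of 83.2 (95% counting interval 28.2 to 406) from 3 Con counts, all in replicate 2. Lower were Col4a3, a basement membrane chain gene (-4.35 ± 0.71 on the log2 scale), Col20a1 (-2.76 ± 0.41) and Col5a2, described above. The list took 5.92% ± 0.673 of Vivo counts and 8.74% ± 1.06 of Con counts (SD, n = 3 each). Of 19 basement membrane genes 2 were called, both lower, with a median of -0.51. Among them Lama5, a laminin chain gene, had 2.39, 3.27 and 2.11 CPM in the Vivo libraries, against 6.08, 10.6 and 7.65 CPM in the Con libraries, though its adjusted p was 0.051 in the FPKM fit. Of 9 small leucine-rich proteoglycan genes only Bgn was called, lower in Vivo with 2398, 2371 and 3349 CPM in the Vivo libraries, against 5722, 5030 and 5424 CPM in the Con libraries, and not without Con replicate 3 (adjusted p = 0.0535). The median of that list was 0.88, and the member with the most counts, decorin (Dcn), had 4902, 4433 and 5085 CPM in the Vivo libraries, against 2450, 2191 and 3215 CPM in the Con libraries (adjusted p = 0.055).

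Elastic fibre genes were called higher in 6 of 20 and lower in 1, with a median of 0.16. Without Vivo replicate 3 the median was 0.08, with 3 called higher and 1 lower. The log2 change of elastin itself was 8.60 ± 0.50, with an adjusted p = 5.2e-05. Emilin2, which encodes an elastin microfibril interface protein, had 75.8, 80.8 and 81.4 CPM in the Vivo libraries, against 13.4, 3.06 and 7.13 CPM in the Con libraries, and its Vivo libraries lay close together. Ltbp2 was the called fall. The matricellular list was called in 7 of 24 upwards and 6 downwards. Tnn, Sparcl1 and Postn were among the rises, and Smoc1, a calcium-binding basement membrane gene with 1 count in Vivo, had 0.0544, 0 and 0 CPM in the Vivo libraries, against 0.966, 0.792 and 1.04 CPM in the Con libraries, a ratio of 0.0198 (95% counting interval 0.00049 to 0.115). The list as a whole took 4.71% ± 0.971 of Vivo counts and 7.41% ± 0.351 of Con counts (SD, n = 3 each), most of it Fn1, Sparc, Tnc and thrombospondins. Tnc, with 18358, 17570 and 11087 CPM in the Vivo libraries, against 17940, 21430 and 22877 CPM in the Con libraries, was not called (adjusted p = 0.23). Enzymes that mature collagen were called in 2 of 25 upwards, the propeptide proteases Adamts14 (1.14 ± 0.19 on the log2 scale) and Bmp1 (0.94 ± 0.14), and in 4 downwards, of which none kept the call in all 6 fits without 1 library. The prolyl hydroxylase gene P4ha2 was among these, with 466, 380.2 and 537 CPM in the Vivo libraries, against 867, 859 and 820.3 CPM in the Con libraries, and was not called without Con replicate 1 or 3 (adjusted p up to 0.0568).

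The stromelysin genes were the called metalloproteinases. Of 15 metalloproteinase and TIMP genes 2 were called, both higher, and the median was 0.78. Mmp3 (ENSRNOG00000032626), which encodes stromelysin-1, had 149, 59.6 and 103 CPM in the Vivo libraries, against 1.19, 4.3 and 1.62 CPM in the Con libraries. Mmp10, the gene of stromelysin-2, had 12.5, 5.28 and 7.37 CPM in the Vivo libraries, against 0, 0.17 and 0 CPM in the Con libraries, a ratio of 147 (95% counting interval 50 to 716) from 3 Con counts. DESeq2 called 5 of the list higher and 1 lower. The member with the most counts, Mmp2, which encodes gelatinase A, had 3255, 3333 and 3083 CPM in the Vivo libraries, against 2808, 2181 and 2516 CPM in the Con libraries (adjusted p = 0.33). Of 30 ADAM and ADAMTS genes 5 were called higher and 3 lower, with a median of 0.24. Adamts16 had 0.978, 1.58 and 0.8 CPM in the Vivo libraries, against 0.0569, 0 and 0 CPM in the Con libraries, a ratio of 59 (95% counting interval 10.2 to 2370) from 1 Con count. Adamts15 had 79.2, 105 and 44.9 CPM in the Vivo libraries, against 11.7, 3.51 and 5.33 CPM in the Con libraries, while Adamts1 had 260.4, 276 and 134 CPM in the Vivo libraries, against 682, 595 and 679 CPM in the Con libraries, and Adamtsl3 fell by 2.58 ± 0.34 on the log2 scale. Among 12 serpin genes Serpinb1a, an inhibitor of leukocyte proteases, had 31.7, 60.8 and 85 CPM in the Vivo libraries, against 244, 232 and 278 CPM in the Con libraries.

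The stromelysin genes Mmp3 and Mmp10 lie on rat chromosome 8, and both promoters hold 1 match to the AP-1 motif TGANTCA. The part of AP-1 factors in their rise was not tested. The sequences are RefSeq's from GRCr8, 250 bases before to 50 after the gene start, for Mmp3 at chr8:12925031-12925330, plus strand and for Mmp10 at chr8:12974457-12974756, plus strand. Capitals mark the motif, searched on both strands, which 7.33% of all 33469 promoters and 4.88% of those of tested genes hold. Of the 9 promoters found for the list 4 hold it, 2 of them of called rises. A match is a description of letters and does not show that a factor binds there.
Mmp3: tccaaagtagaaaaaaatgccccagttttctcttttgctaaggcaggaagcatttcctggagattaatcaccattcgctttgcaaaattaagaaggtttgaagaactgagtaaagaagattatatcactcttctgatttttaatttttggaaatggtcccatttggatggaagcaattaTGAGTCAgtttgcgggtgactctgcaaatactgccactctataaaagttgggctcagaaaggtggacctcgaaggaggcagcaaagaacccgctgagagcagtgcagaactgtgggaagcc
Mmp10: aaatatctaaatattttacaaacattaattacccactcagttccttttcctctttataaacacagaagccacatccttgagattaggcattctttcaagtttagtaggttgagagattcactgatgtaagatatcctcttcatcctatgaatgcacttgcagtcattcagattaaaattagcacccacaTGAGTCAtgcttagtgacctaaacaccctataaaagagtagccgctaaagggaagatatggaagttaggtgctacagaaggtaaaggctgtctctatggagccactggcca

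Actin cytoskeleton genes were called downwards alone, and adhesion genes both ways. Of 54 actin, myosin, tropomyosin and actin-regulator genes none was called higher and 7 were called lower, with a median of -0.29, and DESeq2 called 13 lower. The smooth muscle gene Cnn1, which encodes calponin, had 51.4, 55.2 and 99.4 CPM in the Vivo libraries, against 152, 262 and 199 CPM in the Con libraries. Acta1, skeletal muscle actin, had 1.09, 0.49 and 1.37 CPM in the Vivo libraries, against 3.64, 6.4 and 4.4 CPM in the Con libraries. The Vivo and Con libraries of these genes did not overlap. Cytoplasmic Actb had 5564, 5417 and 4053 CPM in the Vivo libraries, against 5588, 7598 and 5568 CPM in the Con libraries (adjusted p = 0.28), and smooth muscle Acta2 had 542, 483 and 1131 CPM in the Vivo libraries, against 884, 1235 and 1063 CPM in the Con libraries (adjusted p = 0.31), where Vivo replicate 3 lay among the Con libraries. Integrins were called in 3 of 24 upwards and 2 downwards. Itgax, an integrin gene usual in myeloid cells, had 17.9, 28.7 and 24.5 CPM in the Vivo libraries, against 0.739, 2.55 and 2.09 CPM in the Con libraries. Intermediate filament genes were called higher in 2 of 18, among them Nes, which encodes nestin, with 8.75, 6.21 and 14.6 CPM in the Vivo libraries, against 1.31, 0.962 and 0.405 CPM in the Con libraries. Of 12 claudin, connexin and tight junction genes 1 was called higher and 2 lower, both of them connexins. Gja5 had 1.9, 5.28 and 2.51 CPM in the Vivo libraries, against 19.3, 65.7 and 39.7 CPM in the Con libraries, and Gjb2 fell by 1.85 ± 0.30 on the log2 scale. Cadherins and protocadherins were called in 3 of 54, or 5.56%, which is under the share over all genes.

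Wnt pathway genes were among the most often called, with 7 of 36 higher and 7 lower and a median of -0.08. Both directions held ligands or modulators that act outside the cell. Sfrp2, a secreted Wnt modulator, had 210, 97.2 and 122 CPM in the Vivo libraries, against 10.7, 15.5 and 14.6 CPM in the Con libraries, whereas its relative Sfrp1 was lower in every Vivo library. Wnt2 and Dkk2 had few or no Con counts, as given above, and Nkd2 fell by 3.22 ± 0.23 on the log2 scale. TGF-beta superfamily genes were called in 4 of 45 upwards and 5 downwards, with a median of -0.15. Fst, which encodes follistatin, an activin-binding antagonist, had 122, 132 and 138 CPM in the Vivo libraries, against 50.8, 54.6 and 58.9 CPM in the Con libraries. Bmp3 had 9.62, 12.4 and 11 CPM in the Vivo libraries, against 28.8, 44 and 24.2 CPM in the Con libraries, and Bmp2 fell by 1.85 ± 0.26. Of the 17 IGF axis genes 3 were called higher and 1 lower. Igfbp5, an IGF-binding protein gene, had 72.2, 38.4 and 33.1 CPM in the Vivo libraries, against 6.42, 4.07 and 3.82 CPM in the Con libraries, and Pappa2, whose product cleaves that binding protein, had 0.109, 1.09 and 0.4 CPM in the Vivo libraries, against 6.08, 12.1 and 8.46 CPM in the Con libraries. Igfbp4 rose by 1.21 ± 0.17. Fibroblast growth factor genes and their receptors had 2 of 18 called, both lower, of which the decoy receptor gene Fgfrl1 fell by 0.88 ± 0.16.

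Among genes that act on vessels, 7 of 29 were called higher and 4 lower, with a median of 0.11. Kdr (ENSRNOG00000046829), the gene of VEGF receptor 2, had 12.2, 17.5 and 14.6 CPM in the Vivo libraries, against 1.54, 0.679 and 1.22 CPM in the Con libraries. Of the endothelial markers Cldn5 had no count in any of the 6 libraries, and Cdh5 had 0.326, 0.0545 and 0 CPM in the Vivo libraries, against 0.682, 0 and 0.695 CPM in the Con libraries. The whole endothelial marker list summed to 44.3 to 57.6 CPM in Vivo, against 36.6 to 47.4 CPM in Con, and that sum includes Kdr. Most of the rest of it was Egfl7, a gene of a secreted endothelial protein, with 21.8, 25.3 and 35.1 CPM in the Vivo libraries, against 37.2, 30.5 and 34.2 CPM in the Con libraries. Of the 3 endothelial markers with enough counts to be tested, 2 had a log2 change above 0 and 1 was called, higher in Vivo. Their median was 0.66. The part of endothelial cells in the Kdr result was not tested. Chemokine genes and their receptors were called in 4 of 17 upwards and 2 downwards. Cxcr4, the CXCL12 receptor gene, had 1.68, 2.89 and 2.23 CPM in the Vivo libraries, against 0.171, 0.17 and 0.348 CPM in the Con libraries, and Ccl20, a chemokine for CCR6-bearing lymphocytes, had 20.2, 15.5 and 22.4 CPM in the Vivo libraries, against 53.9, 56.4 and 63 CPM in the Con libraries. Cxcl1, a neutrophil chemokine gene, had 845, 562 and 795 CPM in the Vivo libraries, against 40.5, 242 and 114 CPM in the Con libraries, and its call was lost without any Vivo library or without Con replicate 1 or 3 (adjusted p up to 0.134). Among 47 interleukin and receptor genes 3 were called higher and 2 lower. Il11, a cytokine gene of stromal cells, had 107, 58.7 and 47 CPM in the Vivo libraries, against 8.81, 13.5 and 10 CPM in the Con libraries. Il15ra rose by 3.42 ± 0.36 on the log2 scale, and Il1rn, the interleukin-1 receptor antagonist gene, had 29.8, 27.5 and 21.6 CPM in the Vivo libraries, against 95.2, 163 and 125 CPM in the Con libraries. Complement genes were called in 3 of 18 upwards, with C7 the largest, and 2 downwards, with Cd55 the more stable. C3, the other fall, had 278, 190 and 98.6 CPM in the Vivo libraries, against 346, 1341 and 551 CPM in the Con libraries, and its call was lost without any Vivo library or without Con replicate 2 or 3 (adjusted p up to 0.123, and a log2 change of -1.25 without Con replicate 2, against -1.98 with it). Guidance genes of the semaphorin, slit and netrin families were called in 1 of 36 upwards and 4 downwards, among them Unc5b, a netrin receptor gene, with 215, 239 and 187 CPM in the Vivo libraries, against 473, 519 and 404 CPM in the Con libraries.

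Among transcription factor lists, the immediate early and basic helix-loop-helix lists had the most calls. Of 28 AP-1, Egr, Nr4a and ATF genes 10 were called higher and 2 lower, and the median was 0.09. Fosb had 42.6, 164 and 149 CPM in the Vivo libraries, against 1.19, 1.19 and 0.927 CPM in the Con libraries, and Jun had 135, 303 and 255 CPM in the Vivo libraries, against 27.3, 26 and 25 CPM in the Con libraries. In both, Vivo replicate 1 was the lowest Vivo library and still far above Con. Atf5, a stress-response factor gene, had 103, 133 and 152 CPM in the Vivo libraries, against 444, 301 and 357 CPM in the Con libraries. Genes of this class are known to respond within minutes to growth factors and stress. Of 39 genes in the basic helix-loop-helix list 10 were called higher and 2 lower. That list was formed by symbol, and its Snai and Tcf symbols include factors of other classes. Hes1 had 78.2, 125 and 175 CPM in the Vivo libraries, against 4.09, 7.07 and 4.46 CPM in the Con libraries, and Hes1, Heyl and Hey1 were the largest rises of the list that kept their call. Of 19 Hox genes none was called by edgeR, 1 had an unadjusted p under 0.05, DESeq2 called none and limma with sample quality weights called 1 lower. Hoxc10, with the most counts of them, had 44.3, 60 and 77.6 CPM in the Vivo libraries, against 52.8, 57.9 and 53.4 CPM in the Con libraries. Other homeobox genes were called in 2 of 40 and Kruppel-like factors in 3 of 18. Foxs1 rose by 2.12 ± 0.29, and Sox9, the factor of cartilage cells, had 5.92, 4.58 and 7.77 CPM in the Vivo libraries, against 40, 38.1 and 45.3 CPM in the Con libraries. The clock genes Per3 (-1.11 ± 0.18) and Per2 (-1.04 ± 0.15) were the 2 calls among 19 circadian genes, and the hour of collection is not in the labels.

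The Hes1 promoter is shown because Hes1 is a textbook target of Notch. RefSeq's GRCr8 sequence at chr11:84212996-84213295, minus strand, holds 2 matches to the RBPJ core TGGGAA, in capitals, which 25.7% of all promoters and 22.4% of those of tested genes also hold on 1 strand or the other. Of 32 promoters of the basic helix-loop-helix list 5 hold it, and of 6 of its called rises 1 does, that of Hes1. The cAMP response element TGACGTCA was in 2 of 19 promoters of the immediate early list and in none of 5 of its called rises, against 3.29% of the promoters of tested genes.
Hes1: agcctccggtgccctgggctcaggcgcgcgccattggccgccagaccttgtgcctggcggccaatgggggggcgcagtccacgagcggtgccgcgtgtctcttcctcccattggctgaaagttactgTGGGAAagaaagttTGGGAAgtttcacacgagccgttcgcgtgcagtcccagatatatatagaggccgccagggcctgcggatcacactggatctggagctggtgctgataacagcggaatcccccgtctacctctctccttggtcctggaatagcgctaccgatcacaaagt

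Interferon-induced and antigen presentation genes were called mainly upwards. Of 100 interferon-induced genes 17 were called higher and 3 lower, with a median of 0.14, and of 23 MHC and antigen presentation genes 10 were called higher and none lower, with a median of 0.49. Rtp4, an interferon-induced chaperone gene, had 8.26, 4.52 and 10.9 CPM in the Vivo libraries, against 0.455, 0.396 and 1.39 CPM in the Con libraries. Oas1a, a sensor gene of double-stranded RNA, had 4.13, 3.38 and 8.97 CPM in the Vivo libraries, against 0.455, 0.113 and 0.811 CPM in the Con libraries, and its relative Oas1f had 6.2, 3.7 and 8.05 CPM in the Vivo libraries, against 0.455, 1.08 and 0.637 CPM in the Con libraries, with reads that the counting could split between copies of the family. Vivo replicate 3 was the highest library for all 3. The class I gene RT1-S3 had 37.4, 25.8 and 51.5 CPM in the Vivo libraries, against 13.9, 11.7 and 14.9 CPM in the Con libraries, and RT1-T24-4 had 13.9, 7.68 and 14.5 CPM in the Vivo libraries, against 2.1, 2.72 and 2.09 CPM in the Con libraries. Class I genes are near-identical copies of each other, so the split of reads between them is uncertain. B2m, the light chain gene of class I molecules, had 614, 561 and 963 CPM in the Vivo libraries, against 336, 357 and 386 CPM in the Con libraries, and was not called without Con replicate 1 or 3 (adjusted p up to 0.067). Proteasome subunits were called higher in 8 of 45, with a median of 0.35 that was 0.16 without Vivo replicate 3. Of the 8 calls 1 was kept in all 6 fits without 1 library, and the fit to Vivo and Con alone called 2 of the list. Psmb10, an immunoproteasome subunit gene, had 23.6, 21.2 and 42.6 CPM in the Vivo libraries, against 9.78, 11 and 7.47 CPM in the Con libraries.

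Promoters of called members that hold a common motif are shown as examples, and the part of the motif in their rise was not tested. The interferon-stimulated response element GAAANNGAAA was found in 22 of 78 promoters of interferon-induced genes and in 7 of 14 promoters of the called rises, against 3.92% of all promoters and 2.74% of those of tested genes. Capitals mark the matches in Oas1a at chr12:41330216-41330515, plus strand, and in Bst2, the gene of the virus-tethering protein tetherin, at chr16:18254918-18255217, minus strand, which overlap in pairs in both.
Oas1a: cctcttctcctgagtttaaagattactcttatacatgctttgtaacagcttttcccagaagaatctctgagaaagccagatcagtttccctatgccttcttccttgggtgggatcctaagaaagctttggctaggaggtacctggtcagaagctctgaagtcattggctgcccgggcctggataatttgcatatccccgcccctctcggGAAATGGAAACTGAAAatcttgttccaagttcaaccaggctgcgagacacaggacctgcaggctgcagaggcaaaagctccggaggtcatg
Bst2: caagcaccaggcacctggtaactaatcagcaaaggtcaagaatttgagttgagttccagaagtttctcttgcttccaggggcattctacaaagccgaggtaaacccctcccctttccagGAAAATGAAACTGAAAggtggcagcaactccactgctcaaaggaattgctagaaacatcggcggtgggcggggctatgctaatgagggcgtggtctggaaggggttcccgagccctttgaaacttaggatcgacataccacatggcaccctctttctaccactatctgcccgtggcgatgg
Bst2, chosen after its values were seen, had 7.88, 3.76 and 9.25 CPM in the Vivo libraries, against 0.91, 0.566 and 1.45 CPM in the Con libraries, and its log2 change was 2.83 ± 0.45 (adjusted p = 0.0055).

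DNA replication genes were higher as a block. Of 51 genes of the replicative helicase, polymerases and origins 26 were called higher and 1 lower, and the median of 1.12 lay between 0.94 and 1.39 in the 6 fits without 1 library. DESeq2 called 41 higher and 1 lower. None of the 26 kept its call in all 6 fits. Mcm3, a helicase subunit gene, had 116, 99.6 and 106 CPM in the Vivo libraries, against 26.6, 58.7 and 29.8 CPM in the Con libraries, and Gmnn, which encodes the licensing inhibitor geminin, had 30.2, 27.5 and 37.5 CPM in the Vivo libraries, against 6.77, 18.3 and 11 CPM in the Con libraries. In both, Con replicate 2 lay between the other Con libraries and the Vivo libraries. Neither was called without Con replicate 1 or 3 or without Vivo replicate 1 or 2, nor Gmnn without Vivo replicate 3 (adjusted p up to 0.123 for Mcm3 and 0.16 for Gmnn). The list took 0.255% ± 0.00857 of Vivo counts and 0.124% ± 0.0335 of Con counts (SD, n = 3 each). Histone genes were called higher in 3 of 17, with a median of 0.49, and tubulin and kinesin genes in 2 of 51 upwards and 2 downwards. The neuronal tubulin gene Tubb2b had 3.1, 6.43 and 7.43 CPM in the Vivo libraries, against 0.341, 0.566 and 0.29 CPM in the Con libraries.

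Of 43 replication promoters 21 hold one of the E2F motifs TTTCCCGC, TTTGGCGC, TTTCGCGC or TTTGCCGC, against 2.14% of all promoters and 4.07% of those of tested genes. Among called rises of the list 12 of 23 promoters hold one. The Mcm5 promoter at chr19:13488563-13488862, plus strand, is shown as an example with its matches in capitals, a pair of which overlap. Mcm5 had 106, 82.9 and 97 CPM in the Vivo libraries, against 23.8, 54.3 and 28 CPM in the Con libraries, and its log2 change was 1.43 ± 0.36. It was called without Con replicate 2 only among the 6 fits that left out 1 library (adjusted p up to 0.146).
Mcm5: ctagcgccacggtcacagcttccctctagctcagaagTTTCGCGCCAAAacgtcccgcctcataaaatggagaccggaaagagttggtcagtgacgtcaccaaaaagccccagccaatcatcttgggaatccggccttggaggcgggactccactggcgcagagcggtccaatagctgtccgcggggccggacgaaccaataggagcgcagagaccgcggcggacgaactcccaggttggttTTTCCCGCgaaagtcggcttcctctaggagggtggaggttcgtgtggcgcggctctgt

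Housekeeping families of short transcripts moved with Vivo replicate 3. Cytosolic ribosomal protein genes took 3.76%, 3.79% and 6.33% of counts in the Vivo libraries, against 3.79%, 3.60% and 3.38% in the Con libraries. Their median of 0.33 over 76 genes turned to -0.04 without Vivo replicate 3, and 3 of 76, or 3.95%, were called. Mitochondrial ribosomal proteins had a median of 0.33 over 68 genes, 0.10 without that library, and 2 were called. Rpl41, one of the shortest, had 685, 689 and 1675 CPM in the Vivo libraries, against 742, 714 and 696 CPM in the Con libraries (adjusted p = 0.32). S100 proteins, annexins and galectins had a median of 0.13 that was -0.29 without Vivo replicate 3 and -0.11 with gene length offsets. Of 66 splicing factor genes 8 were called, all higher, with a median of 0.30, and of 0.26 without Vivo replicate 3. None of the 8 kept the call in all 6 fits without 1 library. Of 34 aminoacyl-tRNA synthetase genes edgeR called none, 8 had an unadjusted p under 0.05, DESeq2 called 2 higher and limma with sample quality weights called 3 higher and 1 lower.

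Metabolic, transport and stress genes held few large groups. Aldehyde dehydrogenase and cytochrome P450 genes were the exception, with 8 of 32 called higher and 2 lower and a median of 0.32. Without Vivo replicate 3 the median was 0.18, with 7 called higher and 4 lower. Cyp11b2, annotated as aldosterone synthase and close in sequence to its neighbours of the Cyp11b group, had 11.3, 30.5 and 29.4 CPM in the Vivo libraries, against 1.82, 3.57 and 3.53 CPM in the Con libraries. Of 46 glucose transport and glycolysis genes none was called higher and 4 were called lower. The monocarboxylate transporter gene Slc16a4 had 4.67, 5.18 and 4.74 CPM in the Vivo libraries, against 12.5, 13 and 13.9 CPM in the Con libraries, and Gapdh had 2156, 2062 and 3668 CPM in the Vivo libraries, against 2105, 2276 and 2014 CPM in the Con libraries (adjusted p = 0.38). In lipid metabolism Plin2, a coat protein gene of lipid droplets, had 84.5, 82.9 and 81.1 CPM in the Vivo libraries, against 40.1, 48.7 and 36.8 CPM in the Con libraries, while Lpl, which encodes lipoprotein lipase, had 146, 106 and 101 CPM in the Vivo libraries, against 644, 394 and 739 CPM in the Con libraries. Potassium and chloride channels were called in 4 of 39 in each direction. The potassium channel gene Kcnk3 had 0, 0.109 and 0.114 CPM in the Vivo libraries, against 1.08, 1.25 and 1.68 CPM in the Con libraries. Antioxidant genes were called in 2 of 43, both lower, and Sod3, the extracellular superoxide dismutase gene, had 105, 77.7 and 131 CPM in the Vivo libraries, against 363, 256 and 361 CPM in the Con libraries. In the stress-response list of 30 genes 1 was called higher and 3 lower, the rise being Creld2, a chaperone gene of the endoplasmic reticulum, with 59, 59.5 and 73.7 CPM in the Vivo libraries, against 28.3, 36.4 and 27.2 CPM in the Con libraries. Lysosome genes were called in 1 of 36 upwards and 5 downwards.

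Symbol families, formed from the letters before the first digit, gave a view that uses no pathway. Of 126 families with at least 10 tested genes, 39 had no call and 42 had a larger share called than all genes. Mcm led with 6 of 10, all higher, followed by Adamts with 5 of 14 higher and 1 lower. Collagens had 40.6% called, and the nucleoporins (Nup) had 6 of 19, all higher, with a median of 0.53 that was 0.54 without Vivo replicate 3. Of the nucleoporin calls 1 was kept in all 6 fits without 1 library. The phosphodiesterases (Pde) had 4 of 16 called, all lower, with a median of -0.59 and of -0.44 without Vivo replicate 3. Pde2a was the Pde gene that kept its call in all 6 fits without 1 library.

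Among the markers of leukocytes, adipocytes and endothelium, most had too few counts to be tested, and a few were present in both groups. In bulk RNA fewer cells of a type and less RNA per cell cannot be told apart. Of 18 macrophage and leukocyte markers 4 had enough counts to be tested, and the whole list summed to 28.5 to 34.8 CPM in the Vivo libraries, against 25.1 to 29.5 CPM in the Con libraries. The 4 tested markers had a median log2 change of 0.60, with 3 above 0. Of the others, Cd163 had no count in any of the 6 libraries, and Adgre1 had 1 count in all. Mrc1 had 23, 2 and 5 counts in the Vivo libraries, against 2, 3 and 3 in the Con libraries. Tyrobp had 8, 0 and 2 counts in the Vivo libraries and none in Con, while C1qb had 2 counts, all in Con replicate 2. Cd14, the most abundant of the list, had 24.6, 21.9 and 25 CPM in the Vivo libraries, against 18.8, 22 and 21.1 CPM in the Con libraries (adjusted p = 0.4). Csf1r, the receptor gene of the macrophage growth factor CSF1, had 3.75, 3.92 and 5.08 CPM in the Vivo libraries, against 2.1, 1.41 and 1.33 CPM in the Con libraries (adjusted p = 0.053), and Cd68, a lysosomal gene of macrophages, had 1.74, 1.31 and 1.66 CPM in the Vivo libraries, against 0.569, 1.13 and 0.637 CPM in the Con libraries (adjusted p = 0.3), with every Vivo library above every Con library in both. Of these markers Lcp1 was called, lower in Vivo with 0.652, 1.04 and 0.514 CPM in the Vivo libraries, against 2.9, 3.4 and 1.33 CPM in the Con libraries, and not without Vivo replicate 1 or Con replicate 1 or 2. Lymphoid markers summed to 0.109 to 4.34 CPM in Vivo, against 0.114 to 1.30 CPM in Con, with 7 of 12 at 0 in all 6 libraries. Adipocyte markers summed to 3.27 to 9.08 CPM in Vivo, against 5.55 to 10.1 CPM in Con. Of the 3 that were tested none was called and 1 had a log2 change above 0, with a median of -0.52. Among those too low to be tested, Adipoq had 0.109, 0.163 and 0.0571 CPM in the Vivo libraries, against 0, 0.0566 and 0 CPM in the Con libraries. Pparg went the other way, with 0.38, 0.163 and 0.457 CPM in the Vivo libraries, against 4.26, 0.453 and 1.56 CPM in the Con libraries. Mural markers, of which 10 of 12 were tested, summed to 1410 to 2632 CPM in Vivo, against 2627 to 3694 CPM in Con, with 3 called higher and 2 lower. Cspg4, a pericyte surface gene, was one of the rises, with 42.6, 24 and 20 CPM in the Vivo libraries, against 7.33, 11.4 and 7.94 CPM in the Con libraries, and was not called without Con replicate 3 (adjusted p = 0.0511). Mesothelial and epithelial markers, of which 7 of 11 were tested, summed to 164 to 244 CPM in Vivo, against 110.5 to 289 CPM in Con. Of the 7, 4 had a log2 change above 0 and 2 were called, both higher. The mesothelial gene Msln, which encodes mesothelin, had 90.4, 104 and 131 CPM in the Vivo libraries, against 20.6, 16.8 and 22.2 CPM in the Con libraries, while Upk3b had no count in any library. Cdh1, too low to be tested, had no count in any Vivo library and 2.33, 0.226 and 0.348 CPM in the Con libraries. Schwann cell markers summed to 14.5 to 18.1 CPM in Vivo, against 37.1 to 58.7 CPM in Con, most of it S100b, with 12.3, 11.3 and 15.1 CPM in the Vivo libraries, against 54.4, 34.2 and 47.7 CPM in the Con libraries. Skeletal muscle markers summed to 6.25 to 10.3 CPM in Vivo, against 15.4 to 20.4 CPM in Con. Erythroid and platelet markers summed to 2.11 to 3.64 CPM in Vivo, against 0.966 to 2.09 CPM in Con. Of these, 2 were tested, with log2 changes above 0 and a median of 2.40. Only 1 was called, higher in Vivo, and it did not keep its call in all 6 fits without 1 library. The reads were aligned to the rat genome, so RNA of mouse cells is counted here only where it matches rat, and the part of host cells in these levels was not tested.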

How the data were processed

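Poly(A)-selected, strand-marked libraries were made from Trizol RNA, per the labels' protocols, and reads were aligned with HISAT2 to Rnor_6.0, per the submitters' processing notes. No source used here names the aligner's version, the read counter or its strand setting, so overlapping and antisense genes are uncertain. The deposited table holds a whole-number count per gene and library, without normalisation, per the file headers, and an FPKM computed by the authors. The FPKM served for implied gene length, for abundance per length and for an alternative fit.

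Counts were fitted in R 4.3.3 with edgeR 4.0.16: filterByExpr kept 12364 of 21923 genes, libraries were scaled by TMM, and the quasi-likelihood contrast Vivo minus Con was taken, two-sided, from 1 fit of the 3 groups of the study over all 9 libraries, with Benjamini-Hochberg adjustment over all genes tested and a threshold of 0.05. The cultured group that is not described here entered the fit for its estimate of the spread. The biological coefficient of variation common to all genes was 0.231. Fold changes carry edgeR's default prior count, and the SE is the absolute log2 change over the square root of F. A count of 0 allows up to 3 counts, 0.163 to 0.172 CPM per library before scaling. Counting ratios have exact 95% binomial intervals. The fit was tested on simulated counts that had the same spread for every gene and no outlying library. That test therefore does not bear on the effect of Vivo replicate 3.

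Alternatives were each library left out, DESeq2-style size factors (RLE), no filter, a filter of 1 CPM in 3 libraries, a block for the replicate number, DESeq2 1.42.0, the 6 Vivo and Con libraries alone, limma 3.58.1 with sample quality weights, offsets for gene length, limma on log2(FPKM + 1) and a minimum change of 2-fold. The named genes, the 57 gene lists, the 10 marker lists, the tests and the alternatives were chosen with earlier results of these data known. Named were the 25 genes highest in FPKM, the 15 largest called gains and losses in CPM, the 20 largest called rises and falls with at least 5 CPM in the higher group, up to 4 called members and the highest member of each list, genes without a count in 1 group, the markers and a few fixed genes, 330 in all. Gene names are those of the table, where 27 symbols were date-like and stayed out of the lists. Promoters are RefSeq's for GRCr8, matched by symbol to 9113 tested genes, and its coordinates are not those of Rnor_6.0. Python 3.11.15 and matplotlib 3.10.9 drew the figures.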

Additional observations from a re-analysis of the deposited data

How the results depend on the processing

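No gene called in the full fit was called in the opposite direction under any alternative. The count of 1203 called genes lay between 341 and 1706 when 1 library was left out, with rises between 157 and 809 and falls between 184 and 897. It was 2087 with DESeq2 (1129 higher, 958 lower), 3458 with sample quality weights, where Vivo replicate 3 had a weight of 0.0942 (1882 higher, 1576 lower), 667 in the fit to Vivo and Con alone (349 higher, 318 lower) and 708 with a minimum change of 2-fold (374 higher, 334 lower); the cause was not tested, except that the last keeps large changes by construction and the 2-group fit has fewer samples. The FPKM fit called 806 higher and 404 lower, and moved the median of all genes to 0.06. RLE size factors, no filter, at least 1 CPM in 3 libraries and gene length offsets gave 1209, 1190, 1196 and 1615. Fits with each library left out ended the most calls of named genes for Con replicate 3, 110 genes, and for Con replicate 1, 85 genes. The 330 named genes include genes that were not called in the full fit, which had no call to lose. Of the 57 lists, 7 had a median that changed sign without Vivo replicate 3.

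Same-numbered Vivo and Con libraries deviated together with correlations of 0.056, 0.057 and 0.028, so the shared numbers were not taken as pairs. With the replicate number as a block the count was 1203 genes, 647 higher and 556 lower, and 1013 of them were among the calls without the block; each library correlated best with its own number, a hint from the data and not from the design.

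At these depths a gene without a count could still have up to 0.172 CPM in a library, and genes under 1 CPM had a median SE of 0.61 on the log2 scale, against 0.17 for genes between 100 and 1000 CPM.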

Other observations

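Of the genes often used to scale expression B2m was called higher, as described above, and 3 others that were not called are given here. Ppia, a prolyl isomerase gene, had 1233, 1239 and 1585 CPM in the Vivo libraries, against 1071, 1256 and 1074 CPM in the Con libraries (adjusted p = 0.28). Tbp, a general transcription factor gene, had 21.4, 19.4 and 16.2 CPM in the Vivo libraries, against 16.5, 16.9 and 13.1 CPM in the Con libraries (adjusted p = 0.26). Rplp0, a ribosomal stalk gene, had 1659, 1651 and 3252 CPM in the Vivo libraries, against 1975, 1860 and 1749 CPM in the Con libraries (adjusted p = 0.57), and its highest library was Vivo replicate 3.

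The deposited FPKM of the mitochondrial gene Mt-atp8 was among the highest of all genes, at 7442, 10039 and 8297 in the Vivo libraries and 2613, 5654 and 3892 in the Con libraries, while its counts were 0.217, 1.14 and 0.8 CPM in the Vivo libraries, against 0.398, 0.509 and 0.811 CPM in the Con libraries. The length that these values imply is 0.000088 kb, so its FPKM was not used as a level. Of the genes encoded on the Y chromosome Eif2s3y and Kdm5d had no count in any of the 6 libraries, and Ddx3y had 0.38, 0.926 and 0.685 CPM in the Vivo libraries, against 0.341, 0.226 and 0.0579 CPM in the Con libraries.

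Transporters and calcium channels also held calls. Of 31 amino acid transporter genes 2 were called higher and 4 lower, and the serotonin transporter gene Slc6a4 had 0.0544, 0.381 and 0.286 CPM in the Vivo libraries, against 1.82, 3.68 and 2.95 CPM in the Con libraries. Of 35 calcium handling and TRP channel genes 4 were called, all lower, and none kept its call in all 6 fits without 1 library. Of 20 hyaluronan and large proteoglycan genes 2 were called higher and 3 lower. Sdc3, which encodes syndecan-3, had 24.7, 31.8 and 24.8 CPM in the Vivo libraries, against 55.5, 102 and 74.1 CPM in the Con libraries, and the glypican gene Gpc4 had 72.3, 90.2 and 70 CPM in the Vivo libraries, against 188, 149 and 191 CPM in the Con libraries. Rgs16, a brake on G protein signalling, had 31.4, 34.7 and 28.8 CPM in the Vivo libraries, against 62.9, 129 and 92.8 CPM in the Con libraries.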
